A study of Mus musculus with 48 samples.

Results

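The trigeminal ganglion (TG) holds the cell bodies of the sensory neurons of the face, and its small RNAs were compared between mice given lipopolysaccharide (LPS) and mice given saline 7 d earlier. The 8 libraries, 4 after LPS and 4 after saline, were chosen by ganglion, time and treatment in the labels, out of 48 libraries of the series, which also covers 4 h, 24 h and the superior cervical ganglion (SCG). All mice were Balb/c and 2.5 months old, and no allele or second agent is named for either group. The LPS mice had a single intraperitoneal dose of 2.5 mg/kg E. coli LPS (O55:B5) in 0.2 mL saline. The saline mice had the same volume without LPS. Each library came from 1 mouse with its left and right TG pooled, and each group had 2 female mice (replicates 1 and 2) and 2 male mice (replicates 3 and 4). The comparison asks which microRNAs (miRNAs) and tRNA fragments (tRFs) of a sensory ganglion still differ 7 d after a systemic inflammatory stimulus.

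A miRNA guides Argonaute proteins to messenger RNAs, mainly through a seed near its 5′ end, and lowers their translation or stability. LPS is sensed by the receptor TLR4, whose signal through NF-kB switches on the genes of miR-146a and miR-155. MiR-146a acts back on the adaptors IRAK1 and TRAF6 and so limits the same signal, whereas miR-155 favours inflammatory gene expression in myeloid and lymphoid cells. In sensory ganglia the miR-183 cluster marks sensory neurons, while miR-9, miR-124, miR-128 and miR-135a are best known from neurons of the brain and spinal cord. TRFs are pieces of tRNA, among them long 5′ pieces that angiogenin cuts in stressed cells and shorter internal pieces.

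The results turn on a few miRNAs, whose mature sequences are printed so that related members can be told apart (RefSeq, GRCm38.p6, 5′ to 3′, the seed at bases 2 to 8 in capitals). The first 4 are the miRNAs linked to NF-kB signalling or inflammation that were higher after LPS, and the next 5 are the miRNAs with the lowest p values among those that were lower.
miR-146a-5p: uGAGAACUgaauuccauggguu
miR-146b-5p: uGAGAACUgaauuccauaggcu
miR-155-5p: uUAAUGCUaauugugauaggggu
miR-21a-5p: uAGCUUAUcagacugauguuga
miR-9-5p: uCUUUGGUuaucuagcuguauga
miR-708-3p: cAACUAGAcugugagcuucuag
miR-9-3p: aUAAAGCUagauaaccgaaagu
miR-342-3p: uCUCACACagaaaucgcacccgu
miR-135a-5p: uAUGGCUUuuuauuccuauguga
MiR-146a-5p and miR-146b-5p share their seed and differ at 2 positions counted from the 5′ end, G18A and U21C. They come from separate loci, at chr11:43374435-43374456 on the minus strand, where no other gene is annotated, and at chr19:46342790-46342811 on the plus strand, in an intron of Mfsd13a. MiR-155-5p lies in an exon of its host transcript Mir155hg (chr16:84714143-84714165, plus strand), and miR-21a-5p in the UTR of Vmp1 (chr11:86584120-86584141, minus strand). Both arms of miR-9 have 3 loci, on chromosomes 3, 7 and 13. MiR-708-3p lies in an intron of Tenm4 (chr7:96249496-96249517, plus strand), and miR-342-3p in an intron of Evl (chr12:108658680-108658702, plus strand). The positions are those of RefSeq in GRCm38.p6 and the surrounding genes those of the GENCODE annotation, because the deposited count tables hold no coordinates.

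Total miRNA counts in the 8 libraries ran from 2936483 to 5166995, and total tRF counts from 92963 to 544227. Levels are given as CPM, each library's counts relative to its total after trimmed-mean (TMM) scaling, and differences as log2 fold changes, LPS over saline, ± standard error. The sensory neuron marker miR-183-5p was present at 38050 to 46780 CPM after LPS and 28590 to 39770 CPM after saline, so that this marker of the labelled tissue was abundant in all 8 libraries. The saline group was not uniform. Summed over 20 tested miRNAs of central and other neurons, the LPS libraries held 31810, 33000, 33810 and 30570 CPM. Saline replicates 1, 2 and 4 held 58200, 59650 and 56080 CPM, whereas saline replicate 3 held 32130 CPM, and the 8 TG saline libraries of 4 h and 24 h held 26950 to 38030 CPM. Most of each 7 d sum was miR-9-5p and miR-128-3p. MiR-9-5p averaged 11410 CPM after LPS and 18710 CPM after saline, and miR-128-3p 16230 CPM after LPS and 25960 CPM after saline. For many of the miRNAs that differed, the 7 d difference is therefore also given without saline replicates 1, 2 and 4. The tissue is bulk, so that fewer cells of a type and less RNA per cell cannot be told apart.

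Of 538 miRNAs tested across the 24 TG libraries, 33 differed between LPS and saline at 7 d (6.13%; edgeR quasi-likelihood test, adjusted p under 0.05). Of these, 10 were higher after LPS (1.86% of those tested) and 23 were lower (4.28%). The 10 higher miRNAs had a median log2 fold change of 0.58 (range 0.24 to 1.47), and the 23 lower ones a median of −0.98 (range −4.18 to −0.46). Without saline replicates 1, 2 and 4 no miRNA was called in edgeR (32 had an unadjusted p under 0.05), a comparison that leaves 1 saline library at 7 d, which is assumed to vary like the other groups. Over the 33 miRNAs, all 10 higher and 17 of the 23 lower ones then had the sign they had with those libraries. Of the 8 fits that each left out 1 library, all 8 called 3 of the 10 higher miRNAs (miR-146a-5p, miR-146b-5p and miR-210-3p) and 9 of the 23 lower ones. With the 8 earlier saline libraries (4 h and 24 h) in place of those of 7 d, 9 of the 10 higher and 15 of the 23 lower miRNAs had the same sign, and 1 miRNA of all 538 was called (0.186%), miR-146a-5p. This last contrast also spans the time between 24 h and 7 d. The 33 miRNAs were chosen by the 7 d difference, and the comparisons of sign use the same 4 LPS libraries. Agreement in sign is therefore partly built in.

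MiR-146a-5p, the NF-kB-induced brake on TLR signalling, was the miRNA with the lowest p value. It stood at 3359, 1889, 3340 and 3919 CPM in the LPS libraries, against 796.5, 1407, 1345 and 1026 CPM in the saline libraries. Every LPS library lay above every saline library, and also above the range of 1154 to 1564 CPM in the 8 earlier saline libraries. It rose by a log2 fold change of 1.45 ± 0.20, or 2.73-fold (edgeR adjusted p = 0.000239). The difference was 1.17 ± 0.16 against the earlier saline libraries (edgeR adjusted p = 0.000321). The difference without saline replicates 1, 2 and 4 was 1.21 (edgeR adjusted p = 0.418). Its seed partner miR-146b-5p, from another chromosome, stood at 3381, 2673, 3838 and 4073 CPM after LPS, against 2235, 2578, 2718 and 1915 CPM after saline. Here the groups overlapped, because LPS replicate 2 lay below saline replicate 3. MiR-146b-5p rose by 0.56 ± 0.13 (edgeR adjusted p = 0.0123), and stood 0.27 ± 0.11 above the earlier saline libraries (edgeR adjusted p = 0.726).

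MiR-155-5p, a miRNA of activated macrophages and lymphocytes, was low in level but changed as much as miR-146a-5p. It stood at 16.3, 15.1, 16.8 and 23.8 CPM after LPS, against 5.13, 4.53, 9.16 and 7.44 CPM after saline. All LPS libraries lay above all saline libraries of 7 d and above the 5.27 to 10.5 CPM of the earlier saline libraries. The log2 fold change was 1.47 ± 0.37 (edgeR adjusted p = 0.0231), and against earlier saline it was 1.14 ± 0.30 (edgeR adjusted p = 0.165). It was 0.90 without saline replicates 1, 2 and 4, and 0.27 with the summed miR-9 and miR-124 level as a covariate (edgeR adjusted p = 0.997). With that covariate miR-146a-5p had 1.06 (edgeR adjusted p = 0.501) and miR-21a-5p 0.45 (edgeR adjusted p = 0.997). At 7 d the covariate was 11860 to 12810 CPM after LPS, against 24060, 23550, 13900 and 21850 CPM after saline. It thus nearly followed treatment at 7 d, and this fit cannot tell them apart well. MiR-155-5p was the 1 miRNA called when the 8 libraries of 7 d were fitted alone, and 5 of the 8 fits that left out 1 library called it, the others being those without LPS replicate 4 (1.305), saline replicate 1 (1.36) or saline replicate 2 (1.33). MiR-21a-5p, a miRNA induced by STAT3 and AP-1 in many injured tissues, was abundant at 6696, 7892, 7973 and 9137 CPM after LPS, against 5773, 5274, 5116 and 3913 CPM after saline. The groups did not overlap, and the highest earlier saline library held 5885 CPM. MiR-21a-5p rose by 0.66 ± 0.17 (edgeR adjusted p = 0.0234), and the difference of 0.62 ± 0.14 from earlier saline had an edgeR adjusted p of 0.0544. Of the 8 fits that left out 1 library, 6 called miR-21a-5p, all but those without LPS replicate 4 (0.60) or saline replicate 4 (0.58).

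The other 6 higher miRNAs moved less from the saline libraries of other times. MiR-210-3p, the best known miRNA induced by hypoxia, stood at 37.8, 35.4, 34.7 and 38.2 CPM after LPS, against 27.9, 20.3, 29.4 and 17.98 CPM after saline (0.61 ± 0.14; edgeR adjusted p = 0.0119). Its groups did not overlap, but all 4 LPS libraries lay within the 31.9 to 38.4 CPM of the earlier saline libraries, and the 7 d saline libraries lay below that range. Let-7b-5p, of the large let-7 family that restrains growth genes, stood at 11100, 9110, 10270 and 9892 CPM after LPS, against 8862, 8560, 8638 and 8015 CPM after saline (0.24 ± 0.06; edgeR adjusted p = 0.0231). These groups did not overlap either, with LPS replicate 2 the lowest of its group. MiR-24-3p stood at 17410 to 18970 CPM after LPS and 14530 to 17820 CPM after saline, and miR-24-2-5p at 727.4 to 875.9 CPM after LPS and 573.2 to 789.3 CPM after saline. Both are products of the miR-23/24/27 clusters, and in both saline replicate 3 lay within the LPS range. The log2 fold change was 0.24 for miR-24-3p and 0.32 for miR-24-2-5p. It was 0.056 and 0.028 in the same order without saline replicates 1, 2 and 4.

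MiR-363-3p, a member of the X-linked miR-106a-363 cluster, stood at 82.1, 95.2, 91.8 and 95.5 CPM after LPS, against 65.1, 58.0, 86.6 and 69.5 CPM after saline (0.39 ± 0.11; edgeR adjusted p = 0.0312). MiR-486b-3p, from the red cell miRNA locus, stood at 14.9, 10.9, 13.9 and 8.93 CPM after LPS, against 4.93, 7.61, 9.64 and 7.13 CPM after saline (0.73 ± 0.20; edgeR adjusted p = 0.0311). Both overlapped between the groups, and miR-486b-3p had the opposite sign against earlier saline, at −0.14 ± 0.17. The difference without saline replicates 1, 2 and 4 was 0.062 for miR-363-3p and 0.29 for miR-486b-3p. In all, 5 of the 10 higher miRNAs did not overlap between LPS and saline, while over all tested miRNAs the LPS group lay wholly above saline for 18 (3.35%).

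**Figure D1:**
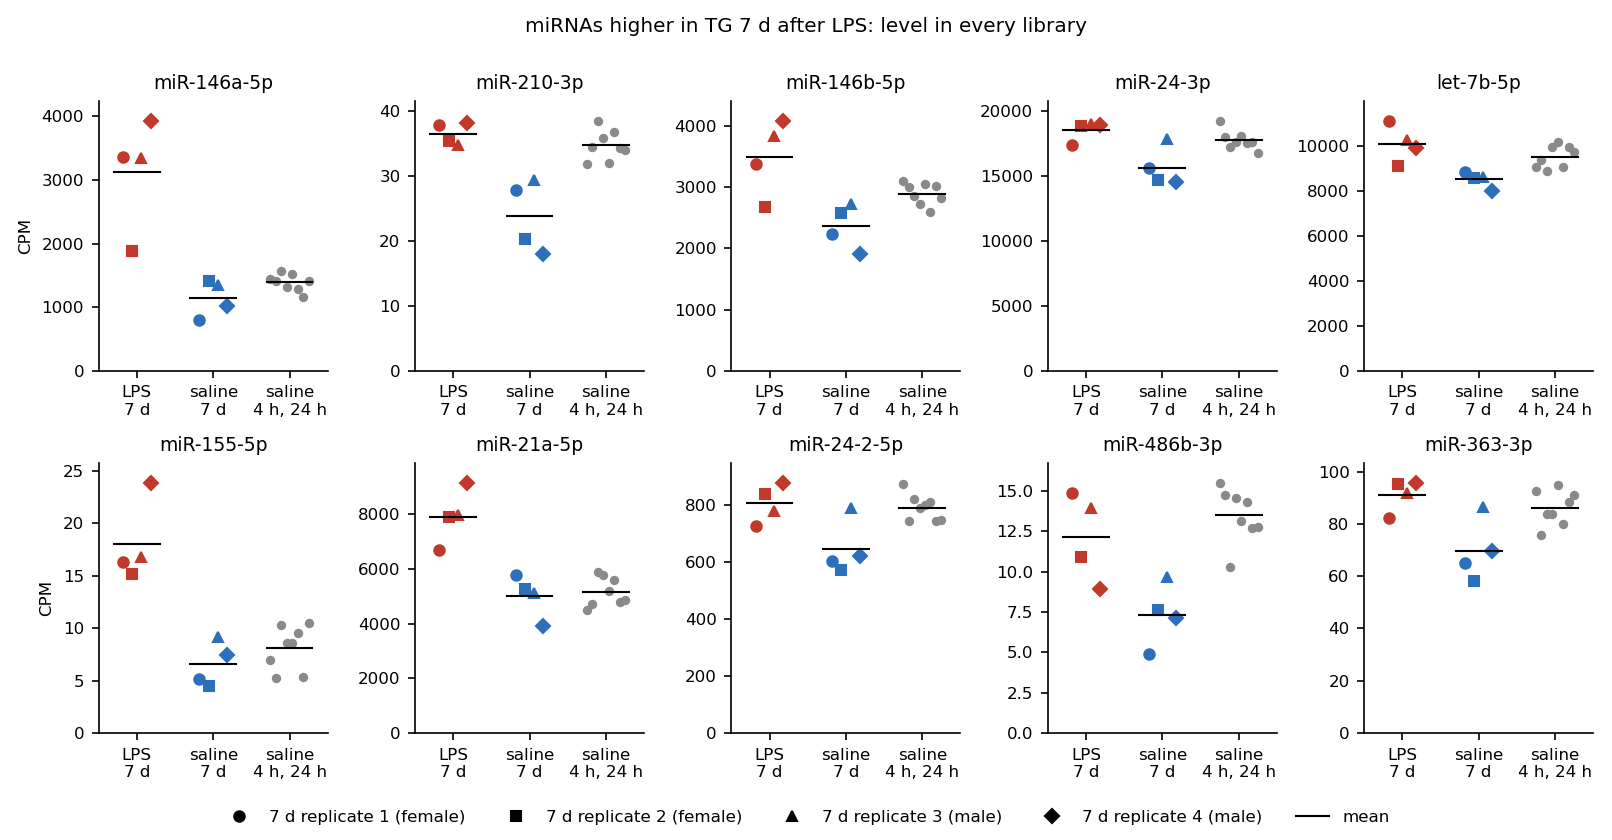
CPM (linear axis from 0) of the 10 miRNAs higher after LPS in the 4 LPS and 4 saline TG libraries of 7 d (marker shape, replicate) and in the 8 saline TG libraries of 4 h and 24 h (grey), with lines for group means. MiR-21a-5p, miR-146a-5p and miR-155-5p after LPS lie above both saline groups, whereas miR-210-3p after LPS lies in the range of the earlier saline libraries.

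Of the 4 inflammation-linked miRNAs, miR-146a-5p alone had an LPS effect at 7 d that passed the test of its difference from another time. It had a log2 fold change of 0.043 at 4 h and 0.84 at 24 h, and its effect at 7 d exceeded that at 4 h by 1.41 ± 0.28 (edgeR interaction test, adjusted p = 0.0101). MiR-155-5p had 1.5 at 4 h and 1.93 at 24 h, miR-21a-5p had 0.34 at 4 h and 1.28 at 24 h, and miR-146b-5p had −0.043 at 4 h and 0.35 at 24 h. Their effects at 7 d minus those at 24 h were −0.46 for miR-155-5p, −0.62 for miR-21a-5p and 0.21 for miR-146b-5p (edgeR interaction adjusted p = 0.281 to 0.783). Minus those at 4 h they were −0.032, 0.31 and 0.60 in the same order (edgeR interaction adjusted p = 0.109 to 0.984). In SCG, a sympathetic ganglion, the 7 d log2 fold changes were 1.84 for miR-21a-5p, 1.03 for miR-146b-5p, 2.18 for miR-146a-5p and 2.23 for miR-155-5p. The TG effect minus the SCG effect was −1.18 for miR-21a-5p, −0.47 for miR-146b-5p, −0.73 for miR-146a-5p and −0.76 for miR-155-5p, and none of these 4 differences passed the test (edgeR interaction adjusted p = 0.0551 to 0.399). Without SCG LPS replicate 2, an alternative added after the data were seen, they were −0.75 for miR-21a-5p, −0.13 for miR-146b-5p, −0.67 for miR-146a-5p and −0.27 for miR-155-5p.

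Among the lower miRNAs, those known from central neurons made up the largest named group. Of 20 tested miRNAs on that list, 12 fell and 0 rose, beside 23 (4.28%) and 10 (1.86%) of all 538 tested. By sign alone, 4 of the 20 were positive, none of them called, beside 266 of all 538. They were miR-137-3p (0.20), miR-138-5p (0.14), miR-138-1-3p (0.33; edgeR adjusted p = 0.0765) and miR-138-2-3p (0.13). The list median was −0.69, beside −0.0053 over all 538. Against earlier saline the median of the same 20 was 0.010 and none was called in edgeR. MiR-9-5p, which acts in neural progenitors and neurons, stood at 10980, 11780, 11900 and 10980 CPM after LPS, against 21340, 20730, 12870 and 19910 CPM after saline. Every LPS library lay below every saline library of 7 d, but 3 saline libraries stood far above saline replicate 3, and the earlier saline libraries held 10850 to 12410 CPM. Its log2 fold change was −0.71 ± 0.12 (edgeR adjusted p = 0.00115), −0.16 without saline replicates 1, 2 and 4, and −0.029 ± 0.10 against earlier saline. The other arm, miR-9-3p, stood at 579.5, 676.7, 630.3 and 645.7 CPM after LPS, against 2141, 2221, 784 and 1354 CPM after saline (−1.34 ± 0.23; edgeR adjusted p = 0.00149). Its difference was −0.28 without saline replicates 1, 2 and 4, and −0.12 ± 0.20 against earlier saline.

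MiR-708-3p, from an intron of the teneurin gene Tenm4, stood at 70.8, 64.9, 39.4 and 44.9 CPM after LPS, against 189.6, 198.4, 84.6 and 282.5 CPM after saline. The groups did not overlap, and saline replicate 3 lay within the earlier saline range of 50.7 to 85.1 CPM. The log2 fold change was −1.77 ± 0.29 (edgeR adjusted p = 0.00130), and −0.61 without saline replicates 1, 2 and 4. MiR-135a-5p stood at 14.3, 10.4, 4.47 and 3.47 CPM after LPS, against 97.7, 107.5, 17.6 and 135.2 CPM after saline, a log2 fold change of −3.40 ± 0.68 (edgeR adjusted p = 0.00873). The earlier saline libraries held 2.12 to 17.4 CPM, and against them the difference was −0.15 ± 0.61. It was −0.78 without saline replicates 1, 2 and 4. Its passenger arm miR-135a-2-3p, at most 1.39 CPM after LPS, reached 14.3 CPM in saline replicate 2 (−3.48 ± 0.88; edgeR adjusted p = 0.0231). The difference of miR-135a-2-3p without saline replicates 1, 2 and 4 was −0.030.

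MiR-124-3p, the most neuron-restricted of the list, stood at 311.0, 296.2, 277.7 and 236.9 CPM after LPS, against 585.1, 605.8, 249.8 and 587.9 CPM after saline (−0.85 ± 0.19; edgeR adjusted p = 0.0106). Saline replicate 3 lay inside the LPS range, and without the other 3 saline libraries the difference turned to 0.15. MiR-128-3p, a regulator of neuronal excitability, stood at 16020, 16240, 17300 and 15380 CPM after LPS, against 29240, 31090, 14690 and 28810 CPM after saline (−0.67 ± 0.17; edgeR adjusted p = 0.0231), and turned to 0.13 without them. MiR-129-2-3p stood at 12.4 to 18.7 CPM after LPS and 22.9 to 51.9 CPM after saline, and miR-129-1-3p at 21.1 to 28.2 CPM after LPS and 35.0 to 57.1 CPM after saline, both without overlap. Their log2 differences without saline replicates 1, 2 and 4 were −0.51 for miR-129-2-3p and −0.58 for miR-129-1-3p, against −1.39 and −0.81 with them. MiR-344-3p stood at 33.5 to 47.1 CPM after LPS and 44.4 to 184.5 CPM after saline, and miR-598-3p at 220.8 to 254.5 CPM after LPS and 217.9 to 448.4 CPM after saline. In these 2 saline replicate 3 lay inside or below the LPS range, and without the other 3 saline libraries the log2 difference was −0.057 for miR-344-3p and 0.14 for miR-598-3p.

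MiR-342-3p was the exception among the 5 lower miRNAs with the lowest p values, since its difference was as large without the 3 high saline libraries. This miRNA of the Evl locus, abundant in lymphocytes and macrophages, stood at 55.1, 52.7, 55.5 and 56.6 CPM after LPS, against 69.98, 74.1, 77.6 and 80.9 CPM after saline. The groups did not overlap and saline replicate 3 was among the higher saline libraries. It fell by 0.46 ± 0.09 on the log2 scale (edgeR adjusted p = 0.00561), and the difference without saline replicates 1, 2 and 4 was −0.49 (edgeR adjusted p = 0.501). Against the earlier saline libraries, which held 51.5 to 72.3 CPM, the difference was −0.12 ± 0.08 (edgeR adjusted p = 0.893). The other leukocyte miRNAs of the list did not pass the test at 7 d. With miR-342-3p they summed to 4996 to 5652 CPM after LPS and 4391 to 9344 CPM after saline. Most of this sum was miR-181a-5p, which averaged 4857 CPM after LPS and 6532 CPM after saline. The sum therefore says little about the other members. On this list 1 of 9 tested fell and 0 rose, beside 23 (4.28%) and 10 (1.86%) of 538 over all tested miRNAs. The list median was −0.25. MiR-142a-3p, present in all blood leukocytes, averaged 57.0 CPM after LPS and 51.5 CPM after saline, and miR-223-3p, of neutrophils and monocytes, averaged 4.39 CPM after LPS and 5.75 CPM after saline. The other arm of that locus, miR-223-5p, averaged 14.6 CPM after LPS and 9.52 CPM after saline (0.62 ± 0.24; edgeR adjusted p = 0.1096).

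**Figure D2:**
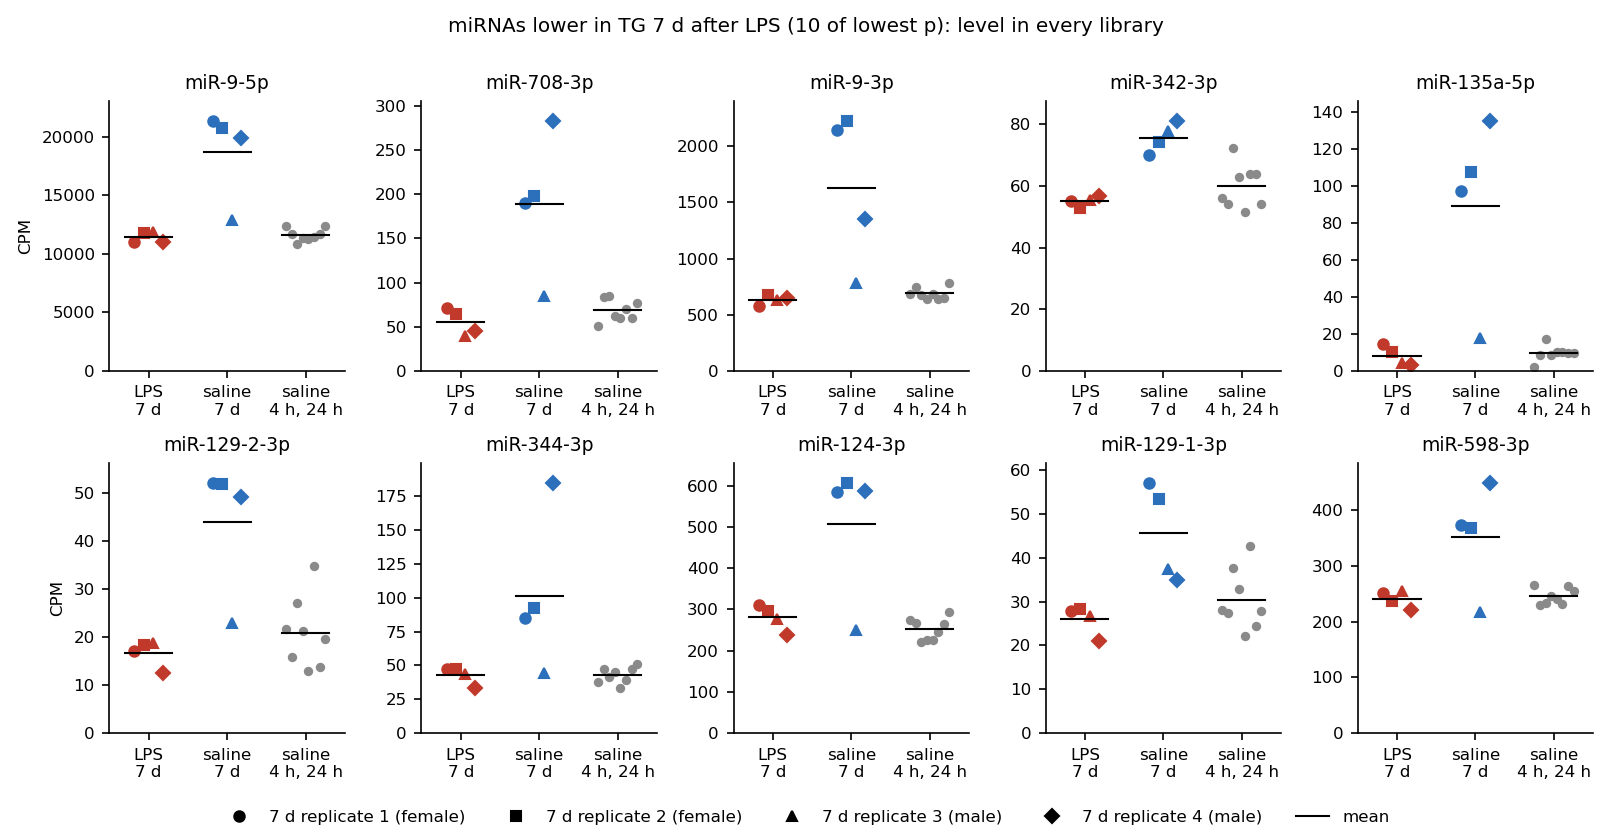
CPM (linear axis from 0) of the 10 miRNAs with the lowest p values among those lower after LPS, in the same libraries and markers as the plot of the higher miRNAs, with lines for group means. For miR-9-5p and miR-124-3p saline replicate 3 (triangle) lies near the LPS libraries and the earlier saline libraries, while for miR-342-3p the 4 saline libraries lie together.

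Of the 23 lower miRNAs 10 did not overlap between the groups, while over all tested miRNAs the LPS group lay wholly below saline for 19 (3.53%). MiR-10a-5p and miR-615-3p, both from Hox clusters and markers of posterior body position, were high in the 2 female saline libraries and in no other library of 7 d. MiR-10a-5p stood at 154.9, 148.3, 140.9 and 133.7 CPM after LPS, against 709.9, 807.1, 134.0 and 131.5 CPM after saline (−1.46 ± 0.39; edgeR adjusted p = 0.0309). Females had a log2 fold change of −2.31 and males one of 0.049, and it was the 1 miRNA of 571 tested (0.175%) whose LPS effect differed between the sexes (−2.36 ± 0.23; edgeR interaction adjusted p = 5.37e-06), with 2 libraries per sex and group. MiR-615-3p, at chr15:103014969-103014990 in an intron of Hoxc5, stood at 1.39, 0.222, 0.263 and 1.49 CPM after LPS, against 36.9, 44.9, 0.964 and 0.310 CPM after saline (−4.18 ± 1.09; edgeR adjusted p = 0.0272). Without saline replicates 1 and 2, an alternative added after the data were seen, the difference was 0.059 for miR-10a-5p and 0.48 for miR-615-3p. The sequences of this pair are printed because their libraries, not their families, set them apart.
miR-10a-5p: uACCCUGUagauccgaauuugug
miR-615-3p: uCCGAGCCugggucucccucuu
MiR-10b-5p, which has the seed of miR-10a-5p, averaged 3343 CPM after LPS and 2781 CPM after saline (0.27 ± 0.10; edgeR adjusted p = 0.114).

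Saline replicate 4 was the highest library for another set. MiR-298-5p stood at 25.4, 21.1, 25.2 and 17.1 CPM after LPS, against 41.0, 47.8, 23.6 and 238.1 CPM after saline (−1.87 ± 0.47; edgeR adjusted p = 0.0240), and its difference was −0.019 without saline replicates 1, 2 and 4. MiR-212-5p, which neuronal activity induces through CREB, stood at 97.0, 88.3, 71.5 and 54.8 CPM after LPS, against 193.7, 204.6, 58.3 and 276.0 CPM after saline (−1.24 ± 0.34; edgeR adjusted p = 0.0338). All 4 tested arms of the miR-132/212 locus were negative, beside 272 of 538 over all tested miRNAs. Their median was −1.19, and miR-212-5p alone was called, while the median was 0.39 against earlier saline. MiR-369-5p (−0.74 ± 0.20) and miR-495-3p (−0.58 ± 0.16) belong to the imprinted Dlk1-Dio3 cluster, where 2 of 59 tested miRNAs fell and 0 rose, with a list median of −0.084, beside 23 of 538 lower (4.28%) over all tested miRNAs. The other lower miRNAs were miR-873a-3p (−0.98 ± 0.27), miR-873a-5p (−0.66 ± 0.19), miR-708-5p (−0.52 ± 0.15) and miR-7689-3p (−1.49 ± 0.43), and miR-1249-3p (−0.62 ± 0.16), for which saline replicate 3 was the highest library and saline replicate 4 the lowest of its group. Their differences without saline replicates 1, 2 and 4 were −0.056 for miR-873a-3p and −0.027 for miR-873a-5p. In the same setting miR-708-5p had −0.40, miR-7689-3p −0.69 and miR-1249-3p −0.77. MiR-7689-3p was scarce, at 0.789 to 1.98 CPM after LPS and 2.17 to 6.82 CPM after saline, with no overlap.

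Each library was also set against the range of the 8 earlier saline libraries. Of the 23 lower miRNAs, the LPS libraries had 0 to 2 above that range, whereas saline replicates 1, 2 and 4 had 21, 21 and 19 above it and saline replicate 3 had 6. Over the 23 miRNAs the median ratio to the earlier saline median was 1.03, 1.01, 0.957 and 0.906 in the LPS libraries, against 1.92, 2.01, 1.11 and 2.302 in the saline libraries. Of the 10 higher miRNAs, the LPS libraries had 4 to 6 above the earlier range and 0 or 1 below it, while the saline libraries had none above it and 9, 8, 3 and 9 below it. With saline replicate 3 and the 8 earlier saline libraries as 1 group, an alternative added after the data were seen, 4 of 527 miRNAs were called (0.759%), all higher after LPS. These were miR-146a-5p at 1.19 ± 0.14 (edgeR adjusted p = 5.74e-05), miR-21a-5p at 0.63 ± 0.14 (edgeR adjusted p = 0.0300), miR-222-3p and miR-449a-5p, the last named after its values were seen. MiR-222-3p, at 239.3 to 271.4 CPM after LPS, held 197.7 to 231.9 CPM in saline replicates 1 to 3 and 527.8 CPM in saline replicate 4. MiR-449a-5p, of the miR-34/449 family, held 3.47 to 4.73 CPM after LPS and 1.86 to 2.54 CPM after saline.

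**Figure D3:**
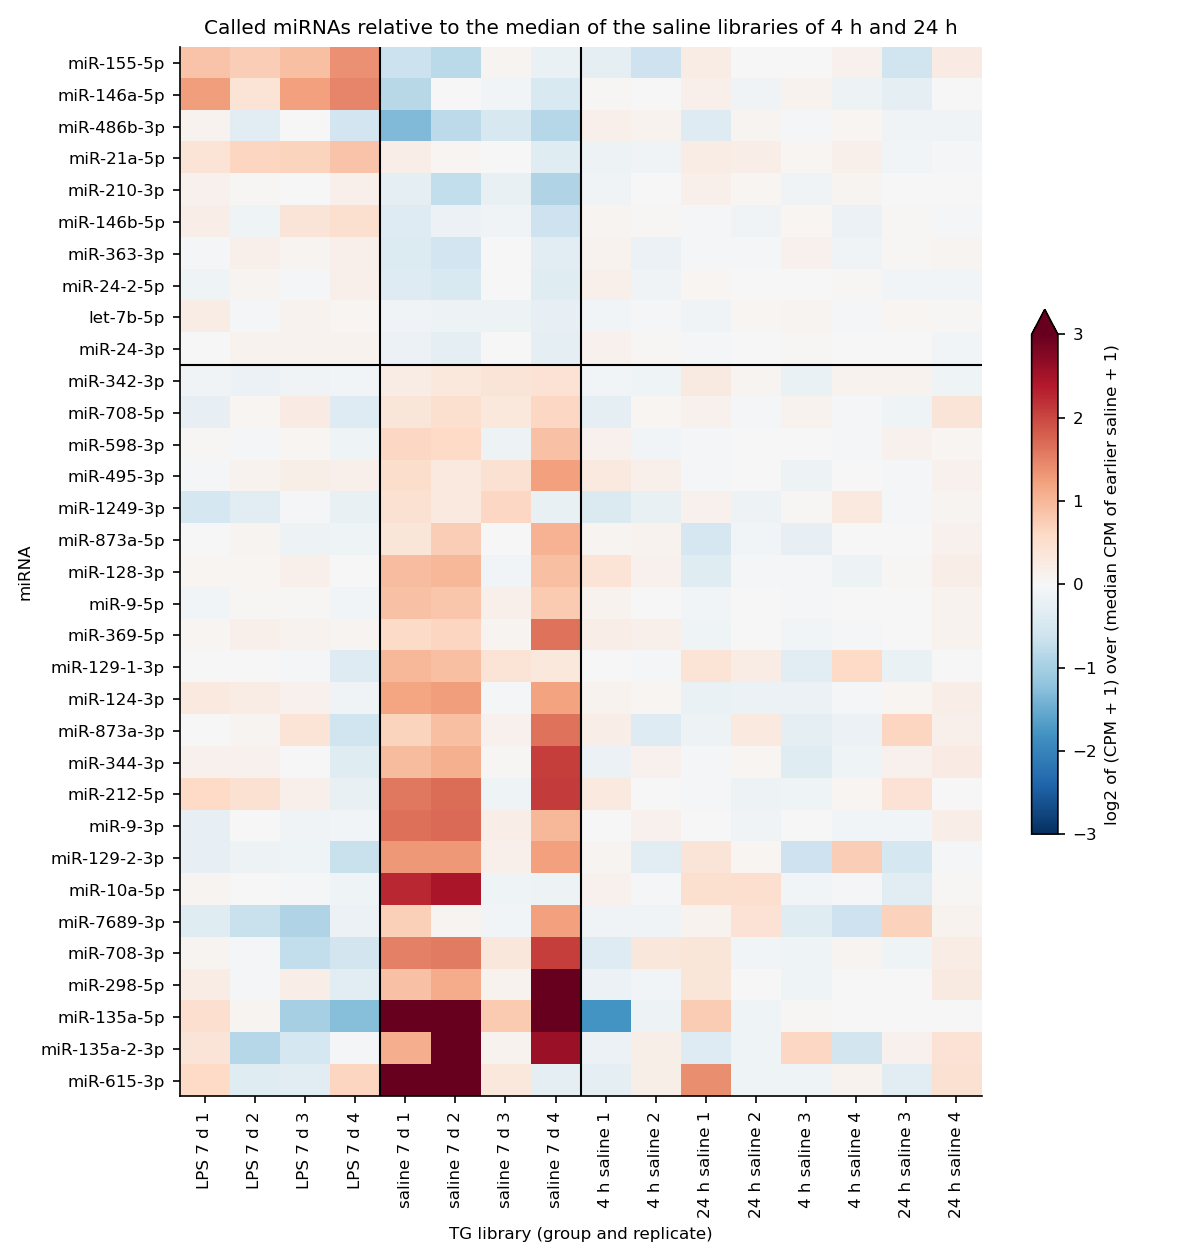
Log2 ratio of CPM + 1 to the median of the 8 saline TG libraries of 4 h and 24 h (color, full at 3 and beyond) for the 10 higher and 23 lower miRNAs, in the 4 LPS and 4 saline libraries of 7 d and those 8 libraries. In the lower block the LPS columns stay mostly near 0. Saline replicates 1, 2 and 4 are positive for most miRNAs, with median CPM ratios of 1.92, 2.01 and 2.302, and replicate 3 has 1.11.

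**Figure D4:**
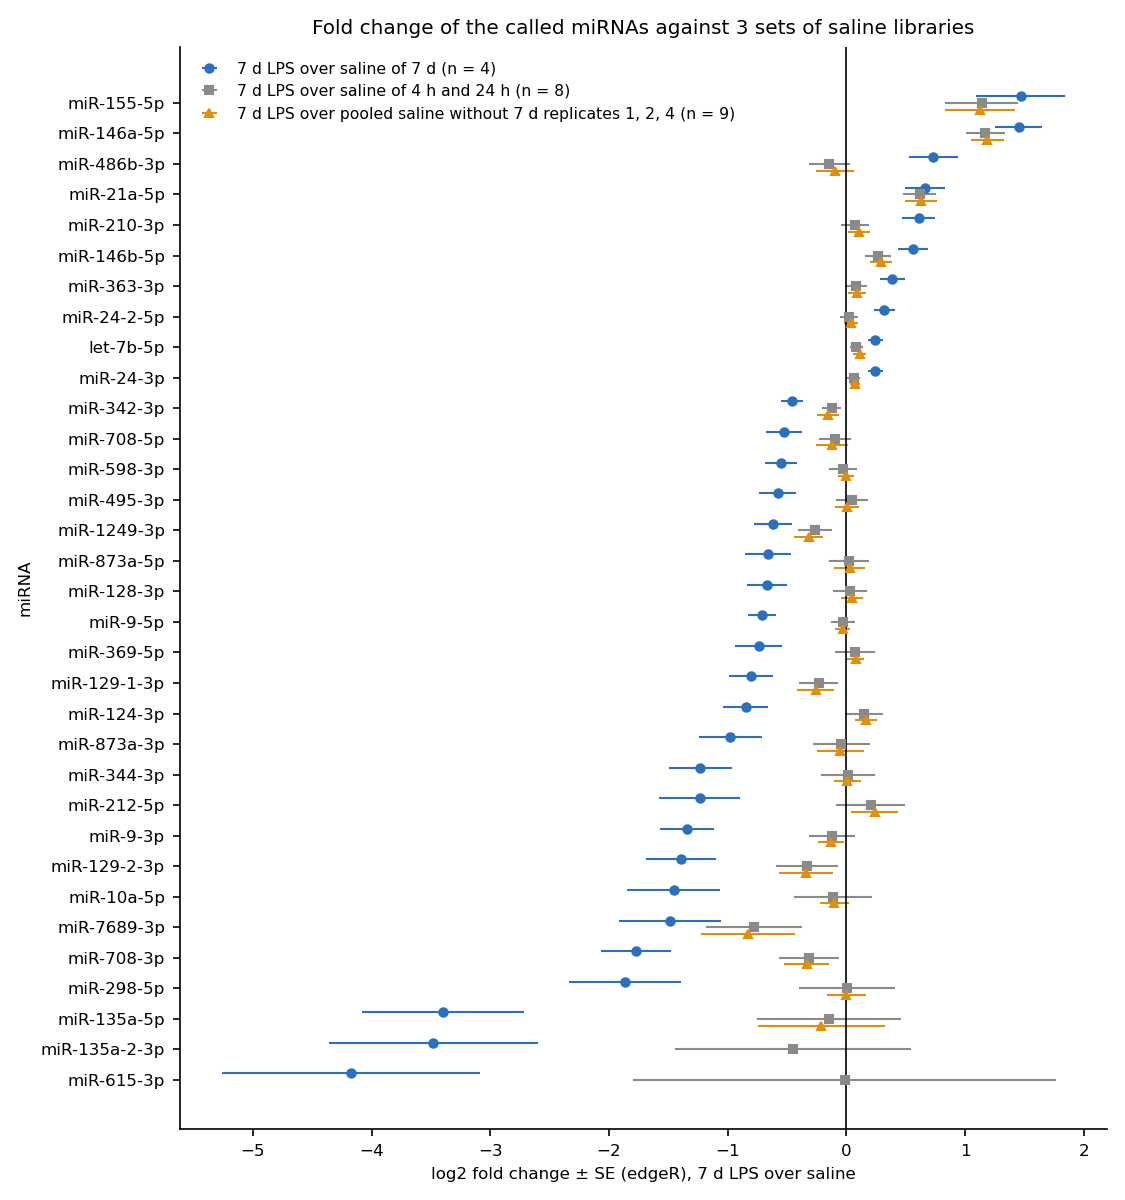
Log2 fold change ± SE (edgeR) of the 33 called miRNAs, 7 d LPS over 7 d saline (blue), over the 8 saline libraries of 4 h and 24 h (grey) and over a pooled saline group of 9 libraries without 7 d saline replicates 1, 2 and 4 (orange; absent for 2 miRNAs below its filter). MiR-146a-5p is called against all 3 saline sets, miR-21a-5p against 2 and miR-155-5p against 1, and most of the lower miRNAs lie nearer to 0 against the other 2 saline sets.

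Other lists gave the setting of these changes. On the list of NF-kB and LPS-induced miRNAs, 4 of 15 tested rose and 2 fell, with a median of −0.17, beside 10 (1.86%) and 23 (4.28%) of 538 over all tested miRNAs. The 4 were both miR-146 members, miR-21a-5p and miR-155-5p, and the 2 that fell, miR-9-5p and miR-212-5p, are also on lists of neuronal miRNAs. Against the earlier saline libraries the median was 0.20. Over all tested miRNAs, 266 of 538 had a positive log2 fold change with TMM scaling. All 6 arms of the miR-183 cluster were positive (median 0.30), none was called in edgeR, and the lowest adjusted p was 0.0685, for miR-183-5p and miR-96-5p. The cluster summed to 74180, 69110, 80620 and 72810 CPM after LPS, against 55140, 59420, 70010 and 55500 CPM after saline, with saline replicate 3 the highest saline library and within the LPS range. All 10 tested miRNAs of the miR-23/24/27 clusters were positive with TMM scaling, 9 of 10 with library totals alone, and 2 of them rose. Of the let-7 family, 8 of 10 were positive with TMM scaling, 7 of 10 with library totals alone, and let-7b-5p alone rose.

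Lists of other cell types showed few calls. Of the oligodendrocyte and Schwann cell list none of 5 passed the test in edgeR, although miR-219a-2-3p, a marker of myelinating oligodendrocytes, stood at 232.9, 95.2, 52.1 and 152.3 CPM after LPS, against 1462, 1707, 572.3 and 224.5 CPM after saline (−2.93 ± 1.01; edgeR adjusted p = 0.0847). The highest saline libraries were again replicates 1 and 2, while the earlier saline libraries reached 598.3 CPM. The epithelium and pituitary list summed to 19960, 12600, 6498 and 4340 CPM after LPS, against 5802, 25110, 5308 and 28010 CPM after saline, so that libraries of both groups were high and none of its 10 miRNAs was called. The red cell list had 1 of 7 called, miR-486b-3p, beside 33 of 538 (6.13%) over all tested miRNAs. It summed to 4967, 4114, 1856 and 1658 CPM after LPS, against 3252, 3716, 2974 and 2125 CPM after saline. None of the tested miRNAs was called on the lists for endothelium (2 tested), muscle (6), mesenchyme and smooth muscle (9), liver and gut (4) or p53 and stress (3), whose medians ran from −0.18 to 0.074. The part of these cell types in the differences was not tested.

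The test of the difference between times named 10 of 538 miRNAs whose LPS effect at 7 d differed from that at 4 h (1.86%). MiR-146a-5p, miR-486b-3p (1.55 ± 0.29) and miR-486a-3p (1.24 ± 0.25) had a higher log2 fold change at 7 d. The other 7, miR-708-3p, miR-9-5p, miR-9-3p, miR-135a-5p, miR-342-3p, miR-873a-3p and miR-124-3p, had a lower one, by −0.55 (miR-342-3p) to −4.65 (miR-135a-5p). Except for miR-342-3p, these 7 are miRNAs whose 7 d difference was smaller or of the other sign without saline replicates 1, 2 and 4. MiR-9-5p averaged 11410 CPM after LPS at 7 d and 12140 CPM after LPS at 4 h, and 18710 CPM in saline at 7 d and 11690 CPM in saline at 4 h. MiR-486b-3p had a log2 fold change of −0.81 at 4 h and 0.73 at 7 d. MiR-486a-3p had −0.76 at 4 h and 0.47 at 7 d, and was not called at 7 d (edgeR adjusted p = 0.0965). Neither was called at 4 h. The 5p arms, miR-486a-5p and miR-486b-5p, had 0.0079 and 0.051 at 7 d. No miRNA differed in its effect between 7 d and 24 h (0%) in edgeR, where 72 had an unadjusted p under 0.05, 17 were called by DESeq2 and 0 by limma-voom. The 3 with the lowest p were miR-708-3p (−1.99 ± 0.41; edgeR interaction adjusted p = 0.0532), miR-135a-5p (−3.72 ± 0.95) and miR-9-3p (−1.23 ± 0.32). Between TG and SCG at 7 d, 2 of 577 miRNAs differed in their LPS effect (0.347%). MiR-342-3p fell in TG (−0.46) and had a log2 fold change of 0.73 in SCG, a difference of −1.19 ± 0.25 (edgeR interaction adjusted p = 0.0109). MiR-708-3p differed by −2.38 ± 0.51 (edgeR interaction adjusted p = 0.0109), with the 3 high saline libraries of TG included. Without SCG LPS replicate 2 both remained, at −1.18 for miR-342-3p and −1.87 for miR-708-3p, among 18 called of 590.

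No tRF differed between LPS and saline among 559 tested (0%) in edgeR, where 38 had an unadjusted p under 0.05, 3 were called by DESeq2 and 0 by limma-voom. Fragments from the 5′ end of tRNA-Glu led both groups. The most abundant, a 5′-half of the deposited parent GluCTC, took 48.6%, 40.7%, 34.0% and 39.2% of the tRF counts after LPS, against 32.4%, 35.4%, 41.8% and 35.0% after saline (0.66 ± 0.48; edgeR adjusted p = 0.896). All fragments of the 5′-half type together took 83.3%, 78.3%, 70.2% and 69.5% after LPS, against 71.6%, 72.9%, 78.2% and 70.7% after saline. The difference in mean, 2.01 percentage points, was smaller than the spread (exact two-sided permutation test over 70 assignments, p = 0.686). None of the 5 fragment types differed in share (exact permutation p = 0.257 to 0.857, smallest possible 0.0286). There were 11.0, 5.20, 2.40 and 3.58 tRF counts per 100 miRNA counts after LPS, against 3.28, 3.44, 3.22 and 4.98 after saline (exact permutation p = 0.514). LPS replicate 1 was the highest of all 8.

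Among single fragments, internal pieces of leucine tRNAs had the lowest p values, and none was called. Of 33 tested internal leucine fragments, 31 had a negative log2 fold change and 19 an unadjusted p under 0.05, with a median of −1.11. Over all 559 tested tRFs, 267 had a negative log2 fold change and 38 an unadjusted p under 0.05, with a median of 0.024. Overlapping fragments can share reads, so that the 33 are not independent. The family was singled out by its low p values, so that these counts describe it and test nothing. The 3 tRFs with the lowest p values, none of them called, came from this family, and their sequences are given with the 9-base stretch searched in the other fragments in capitals.
tRF-18-W9RKM80E: tcttcgggGGCGTGGGTt
tRF-18-W96KM80E: tcttcggaGGCGTGGGTt
tRF-17-W9RKM8N: tcttcgggGGCGTGGGT
The deposited annotation gives LeuAAG and LeuTAG as parents of all 3. The second differs from the first by G8A, counted from the 5′ end, and the third is the first without its last base, so that the 3 are not independent. This stretch, searched as printed on the given strand, occurs in 27 of the 33 internal leucine fragments (81.8%) and in 27 of all 559 tested tRFs (4.83%). It was taken from the 3 fragments as the longest stretch they share, so its frequency in their own family tests nothing. The internal leucine fragments with it had a median log2 fold change of −1.11, and the 6 without it had −0.98. The presence of the stretch in a fragment is a description and names no site.

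The raw counts behind these 3 fragments were small. The first had 7, 8, 9 and 7 counts after LPS, against 33, 41, 13 and 53 after saline (−2.13 ± 0.48; edgeR adjusted p = 0.0898). The second had 6, 4, 5 and 5 counts after LPS, against 26, 27, 12 and 48 after saline (−2.47 ± 0.60; edgeR adjusted p = 0.0931). In both the groups did not overlap, and saline replicate 3 was the saline library nearest to LPS. Summed over the family, internal leucine fragments stood at 3036, 3772, 4825 and 4515 CPM after LPS, against 8240, 7234, 4668 and 10400 CPM after saline (−0.93 ± 0.26; edgeR adjusted p = 0.1095). Saline replicate 3 again lay within the LPS range, and the 8 earlier saline libraries held 2497 to 6133 CPM, so that the family followed the same 3 saline libraries as the central neuron miRNAs. Scaled to the miRNA totals of each library in place of the tRF totals, the family was called at −1.07 ± 0.22 (edgeR adjusted p = 0.00633), and without saline replicates 1, 2 and 4 its difference was −0.17. Of 73 families of fragment type and amino acid none was called (0%) in edgeR with the tRF totals, where 2 had an unadjusted p under 0.05, 1 was called by DESeq2 and 0 by limma-voom.

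**Figure D5:**
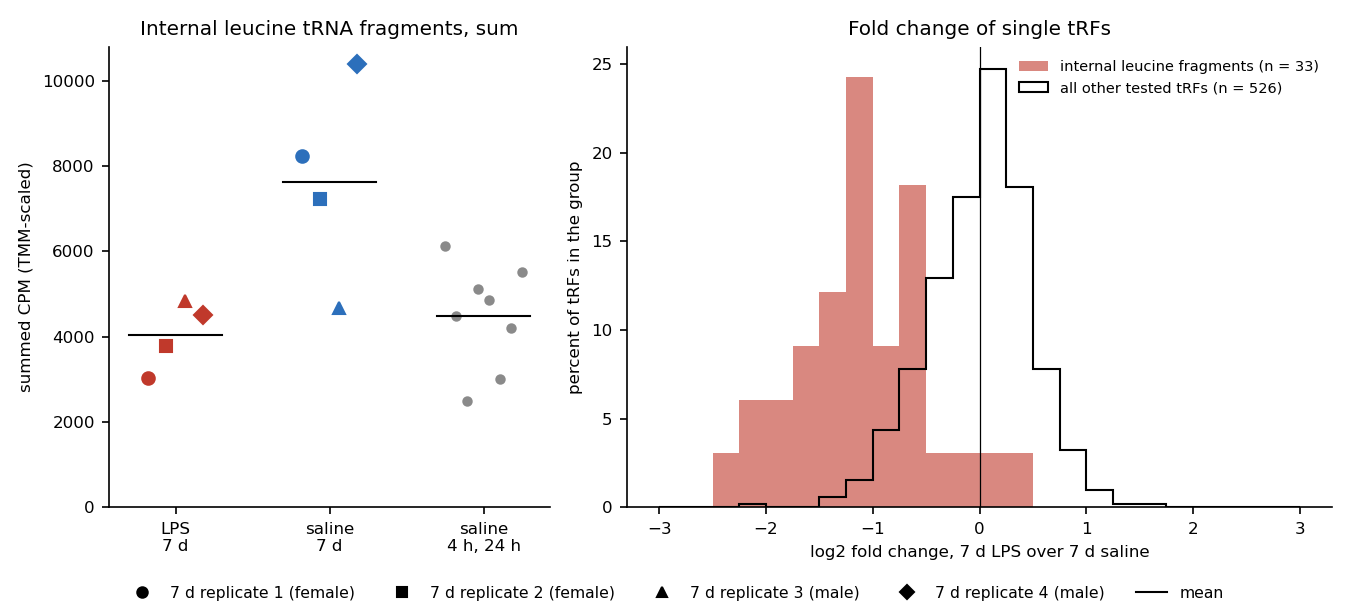
Left, summed CPM of internal leucine tRNA fragments in the 4 LPS and 4 saline TG libraries of 7 d (marker shape, replicate) and the 8 saline TG libraries of 4 h and 24 h (grey), with lines for means. Right, percent of fragments by log2 fold change, 7 d LPS over 7 d saline, for 33 internal leucine fragments (red) and the other 526 tested tRFs (black outline). Saline replicates 1, 2 and 4 lie at 7234 CPM or above, and the red bars lie to the left of 0 for 31 of 33 fragments. The 33 fragments are not independent.

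The 3 tRFs with the lowest p values among those with positive differences were not called either. They were a 3′-tRF of GlyTCC (1.07 ± 0.43), a 5′-tRF of GluTTC (1.075 ± 0.47) and a 5′-half of ProTGG (1.47 ± 0.66), with edgeR adjusted p values of 0.637 to 0.664. Of the families with the most counts, the 5′-half of Glu (0.58 ± 0.41), the 5′-tRF of Glu (0.53 ± 0.38), the 5′-half of His (0.36 ± 0.33) and the 5′-half of Lys (0.23 ± 0.37), none was called, with edgeR adjusted p values of 0.792 to 0.932.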

How the data were processed

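Small RNA libraries of both ganglia were made from total RNA, and the tables of miRNA and tRF counts deposited by the authors hold raw whole-number read counts per feature. FastQC 0.11.9 and the build GRCm39 are named in the submitters' processing notes. The sources used here do not give the aligner or the counter. Groups came from the labels, and replicate numbers follow accession order. Levels are CPM with TMM scaling, from miRNA totals of 2936483 to 5166995 and tRF totals of 92963 to 544227 per library. Counts were tested with edgeR 4.0.16 in R 4.3.3 (quasi-likelihood, robust, filterByExpr with a minimum count of 10) over 24 TG libraries in 6 groups with sex as an additive term. P values were Benjamini-Hochberg adjusted over all features tested, with a threshold of 0.05. DESeq2 1.42.0, limma 3.58.1, other scalings, no filter, other saline groups and leaving out single libraries were alternatives. The fits were tested on simulated counts with 200 changed features and the same spread in every group. The simulation held no group with outlying libraries, so it does not cover the uneven saline group of 7 d. Shares were compared by exact permutation. Multi-copy miRNAs, miRNAs of nearly the same full sequence, and overlapping tRFs can share reads. The edgeR p values for TG rest on a spread between mice pooled over all 24 TG libraries, not on the 7 d mice alone. Fitted alone, the libraries of 7 d gave 1 call of 500 tested in edgeR, with fewer libraries to estimate the spread. Replicates of a 7 d TG group differed by more than counting error, with a chi-square per degree of freedom of at least 31.7 in each pair. It ran from 31.7 to 142 between LPS replicates and from 149 to 308 between saline replicates.

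All called miRNAs are named, with values per library for the 10 lowest p values in each direction. Uncalled tRFs are the 3 lowest p values in each direction. Members and lists (19 lists, 240 names) were chosen with earlier results of these data known.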

Additional observations from a re-analysis of the deposited data

Results flagged for a closer look

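In groups of 4 libraries, 1 library lay far from the other 3 in 20 of 198 groups tested, where chance alone flags about 5% (10 groups). The 198 groups are not independent, since they share libraries and related miRNAs, and some are sums that include others. Whether 20 exceeds 10 was not tested. Of the 20 flagged groups, saline replicate 3 accounted for 7 and saline replicate 4 for 6.

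Saline replicate 3 was lowest in its group for miR-9-5p (12870 CPM), miR-129-2-3p (22.9 CPM), miR-124-3p (249.8 CPM), miR-128-3p (14690 CPM), miR-129-5p (1897 CPM) and the summed central neuron list (32130 CPM), and highest for miR-96-5p (4216 CPM). Saline replicate 4 was highest for miR-298-5p (238.1 CPM), miR-221-3p (205.6 CPM), miR-222-3p (527.8 CPM), miR-187-3p (74.7 CPM) and tRF counts per 100 miRNA counts (4.98), and lowest for the share of 3′-tRFs (4.22%). Saline replicate 1 was highest for tRF-17-8SPOL52, at 52.7 CPM. LPS replicate 4 was highest for miR-125b-5p (18260 CPM), miR-124-5p (14.4 CPM) and miR-183-3p (21.3 CPM), and lowest for miR-221-3p (109.6 CPM). LPS replicate 1 was lowest for miR-24-3p (17410 CPM) and for the summed miR-23/24/27 clusters (50800 CPM).

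The LPS effect at 7 d minus that at 4 h, on the log2 scale, was 1.55 for miR-486b-3p, 1.41 for miR-146a-5p and 1.24 for miR-486a-3p. It was −2.045 for miR-708-3p, −0.77 for miR-9-5p, −4.65 for miR-135a-5p, −1.50 for miR-9-3p, −0.55 for miR-342-3p, −1.56 for miR-873a-3p and −1.05 for miR-124-3p. The effect in TG minus that in SCG was −1.19 for miR-342-3p and −2.38 for miR-708-3p, and the effect in females minus that in males was −2.36 for miR-10a-5p. These 13 differences passed the edgeR test of the difference itself.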

How the results depend on the processing

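All 33 called miRNAs kept direction and call with median-ratio scaling, DESeq2 and no sex term, and 23 did with limma-voom. The counts higher and lower were 7 and 42 with library totals alone, 8 and 46 without a filter, 15 and 40 with DESeq2, 10 and 13 with limma-voom, 1 and 0 with the 7 d libraries alone, 1 and 0 against saline of 4 h and 24 h, and 4 and 0 against all 12 saline libraries. They were 0 and 0 in edgeR without saline replicates 1, 2 and 4 (32 at unadjusted p under 0.05) and with the miR-9 and miR-124 level as covariate (33). The covariate nearly followed treatment at 7 d, so that its fit cannot tell them apart well. In alternatives added after the data were seen the counts were 4 and 0 with pooled saline and 1 and 5 without saline replicates 1 and 2. Leaving out 1 library gave 5 to 32 higher and 12 to 56 lower, the highest without saline replicate 3.

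The count of effects that differed from 4 h was 47 without a filter, 19 with DESeq2 and 8 to 49 leaving out 1 library; from 24 h it was 39, 17 and 0 to 29, and 1 without the sex term. Between ganglia it was 12 with median-ratio scaling, 12 with library totals, 81 without a filter, 66 with DESeq2, 20 without the sex term, 0 to 25 leaving out 1 TG library and 18 without SCG LPS replicate 2. Between sexes it was 5 without a filter, 3 with DESeq2 and 1 to 36 leaving out 1 library. The highest of each range was without saline replicate 3. Lower tRFs numbered 2 without a filter, 3 with DESeq2, 1 with miRNA totals and 0 to 2 leaving out 1 library, and called families 1, 1, 1 and 0 to 1.

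Signs turned as follows on the log2 scale. Without saline replicates 1, 2 and 4 the values were miR-124-3p 0.15, miR-598-3p 0.14, miR-128-3p 0.13, miR-369-5p 0.015, miR-10a-5p 0.029, miR-212-5p 0.38 and 5′-half His −0.10. Against saline of 4 h and 24 h they were miR-344-3p 0.010, miR-124-3p 0.15, miR-128-3p 0.030, miR-298-5p 0.0043, miR-369-5p 0.071, miR-495-3p 0.051, miR-486b-3p −0.14, miR-212-5p 0.20, miR-873a-5p 0.022, tRF-18-W96KM80E 0.33, tRF-17-8SPOL52 −0.16 and 5′-half His −0.050. With pooled saline they were miR-344-3p 0.0089, miR-124-3p 0.17, miR-128-3p 0.052, miR-298-5p 0.00064, miR-369-5p 0.078, miR-495-3p 0.0087, miR-486b-3p −0.096, miR-212-5p 0.24, miR-873a-5p 0.030, tRF-17-8SPOL52 −0.092 and 5′-half His −0.038. With the covariate they were miR-598-3p 0.13, miR-128-3p 0.22, miR-615-3p 0.75, miR-10a-5p 0.11, 5′-half Glu −0.13 and 5′-half His −0.16. Without saline replicates 1 and 2 they were miR-615-3p 0.48, miR-10a-5p 0.059 and 5′-half His −0.19. With library totals 5′-half His was −0.064 and 5′-half Lys −0.32, and 5′-half Lys ran from −0.030 (without LPS replicate 1) to 0.41 leaving out 1 library.

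Leaving out 1 library moved the difference in 5′-half share from −0.65 (without LPS replicate 1) to 3.95 percentage points, in 5′-tRF share from −1.01 (without saline replicate 3; −0.92 without LPS replicate 4) to 2.22, and in tRF counts per 100 miRNA counts from −0.0047 (without LPS replicate 1) to 2.87. The i-tRF share ranged from −2.14 (without LPS replicate 3, exact permutation p = 0.0286) to −0.61. The cause of these moves was not tested. No paired analysis was possible because the replicate numbers follow accession order and the labels tie no mice across groups. Low tRF counts limit single fragments.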
